A study of Bos indicus with 5 samples.

Results

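Transcripts of 9 genes of retinoid signaling were described in the bovine ampulla, the wide portion of the oviduct where fertilization takes place. They were RARRES1 together with RARRES2, RBP4, CRABP2, STRA6, RARA, RARB, RARG and RXRA. The genes were picked by symbol from a table of 24616 genes, and all 9 were found in it, each under a single Ensembl identifier. RARRES1 was picked because it is among the most abundant transcripts of these libraries, so its abundance is given as a description with no test. The rule of choice did not use the comparison between the groups of cows. Earlier results of these data were known, however, when the genes were chosen.

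The samples were 5 polyA RNA libraries from multiparous, non-lactating Nelore cows, a Bos indicus beef breed. Ampulla was taken on day 4 from the side of the corpus luteum, as the whole wall of the tube, so epithelium, stroma and muscle were sequenced together. Every cow had received a progesterone device, estradiol benzoate, prostaglandin F and then GnRH to induce ovulation. LF/LCL stands for cows with a large follicle and then a large corpus luteum (2 libraries). They also received prostaglandin when the device was inserted, and the device was removed 42 h before GnRH. SF/SCL stands for cows whose follicle and corpus luteum were small (3 libraries), with removal 30 h before GnRH. Each library was from a different cow, and the cows were the most extreme of their group in ovarian and hormone measurements. The SD below measures the spread between these few selected cows. The SE and p-values rest on this spread and also on that of other genes, since limma, edgeR and DESeq2 share variance across genes.

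Retinol, or vitamin A, travels in blood bound to RBP4 and enters cells through STRA6. Inside the cell it is oxidized to retinaldehyde and then, by the ALDH1A enzymes, to retinoic acid. Retinoic acid is carried by CRABP proteins to nuclear receptors of the RAR family, which bind DNA as pairs with an RXR and switch on target genes, and CYP26 enzymes degrade it. In the female tract retinoic acid is known for its part in forming the oviduct and uterus from the Müllerian duct and in keeping the lining of ducts from turning squamous.

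Values are normalized reads, that is, the reads of a gene divided by 1 size factor per library. They are not corrected for transcript length, so levels were compared between libraries. Where 2 genes are set side by side, as in a rank or a ratio, the values are numbers of reads and not of molecules. The libraries held 13418278 to 19592174 reads assigned to genes. The fold changes are LF/LCL over SF/SCL on the log2(value + 1) scale, with the SE from limma.

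RARRES1 (ENSBTAG00000014713) encodes a membrane protein related to latexin, first known as a gene induced by retinoids in skin. It had 103645 and 128008 normalized reads in LF/LCL replicates 1 and 2, against 70967, 64330 and 47702 in the SF/SCL libraries (replicates 1, 2 and 3). Both LF/LCL libraries were above all 3 SF/SCL libraries. The level thus ran from LF/LCL replicate 2 through LF/LCL replicate 1 and SF/SCL replicates 1 and 2 down to SF/SCL replicate 3.

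By mean value over the 5 libraries RARRES1 ranked 3, with 82930 normalized reads. The neighbours in that order were OVGP1, the oviduct glycoprotein, with 133230, TPT1 with 86964, and below it B2M with 54628 and EEF1A1 with 53708. In single libraries RARRES1 ranked 2 and 1 in LF/LCL, against 3, 3 and 8 in SF/SCL. It took 0.659% (95% exact binomial interval 0.654 to 0.663) and 0.818% (0.813 to 0.822) of the reads in the LF/LCL libraries. In SF/SCL the shares were 0.462% (0.458 to 0.465), 0.422% (0.42 to 0.425) and 0.311% (0.308 to 0.314). These intervals cover counting error only, and none of the 5 overlapped, so at this depth counting error was small beside the spread between cows.

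The mean of RARRES1 was 115826 ± 17200 in the 2 LF/LCL libraries and 61000 ± 12000 in the 3 SF/SCL libraries (± SD). The log2 fold change was 0.94 ± 0.20 (SE), with a 95% interval from 0.44 to 1.43. Its p was 0.0034 before adjustment and 0.248 after Benjamini-Hochberg adjustment over all genes with limma. With DESeq2 on the whole reads recovered from the table the adjusted p was 0.00326, with the edgeR exact test 0.0138 and with the edgeR quasi-likelihood test 0.275. Over these tests, other settings of limma and limma without 1 library the adjusted p ran from 0.00326 to 0.442, and with DESeq2 refitted without 1 library from 0.00142 to 0.15. The DESeq2 call was lost without LF/LCL replicate 2 (adjusted p = 0.15), and it held without each of the other libraries (0.00142 to 0.0139).

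**Figure D1:**
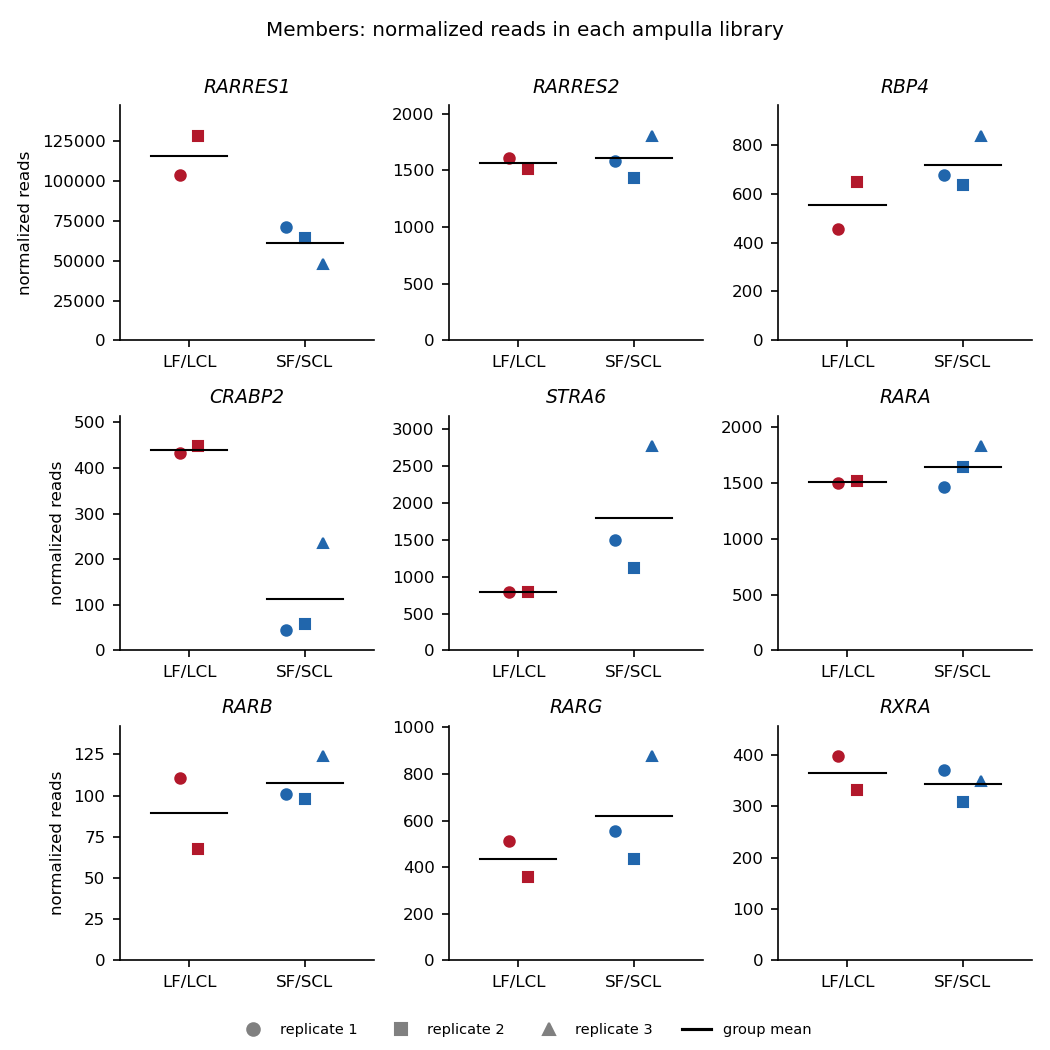
Normalized reads (linear axes from 0, with a range of its own in each panel) of the 9 genes in 2 LF/LCL (red) and 3 SF/SCL (blue) ampulla libraries. Each symbol is 1 library, its shape gives the replicate, and the line is the group mean; RARRES1 and CRABP2 lie higher in both LF/LCL libraries, STRA6 lies higher in all 3 SF/SCL libraries, and the other 6 genes overlap between groups.

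Across the 9 genes, 0 had a limma adjusted p under 0.05, as did 0% of the 15815 genes tested, where the smallest adjusted p was 0.178. DESeq2 called 1 of the 9, RARRES1, beside 2.90% of all genes tested (458 genes). The edgeR exact test also called 1, beside 2.12%, and the quasi-likelihood test called 0, beside 0%. Before adjustment 3 of the 9 had a limma p under 0.05, beside 11.5% of all genes, and 3 had a quasi-likelihood p under 0.05, beside 11.7%. The groups did not overlap for 3 genes, with RARRES1 and CRABP2 higher and STRA6 lower in LF/LCL, and this was so for 30.1% of all genes. The median log2 fold change of the 9 was -0.12, and that of all genes tested was 0.005. All 9 passed the filter on low values, a mean value over 5.

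The marker genes of the cell types in the wall were examined beside these values. RARRES1 itself was compared with OVGP1, a product of the secretory epithelium, within each library. The ratio of RARRES1 to OVGP1 was 0.729 and 1.09 in LF/LCL, against 0.581, 0.437 and 0.347 in SF/SCL. Both LF/LCL ratios were thus above the 3 others, as for RARRES1 itself, with a difference in mean log2 ratio of 1.00. OVGP1 itself overlapped, with 142100 and 117200 normalized reads in LF/LCL, against 122200, 147200 and 137400 in SF/SCL. The ratio holds for this single marker and does not stand for the secretory epithelium as a whole. Ratios to other secretory markers were not computed, and WFDC2 and KRT19, given below, did not move as OVGP1 did.

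The summed secretory markers (15 of 15 listed genes present) ranged from 182169 to 201803 normalized reads in LF/LCL, against 178833 to 205857 in SF/SCL, and so overlapped. OVGP1 made up most of this sum, with between 117200 and 147200 normalized reads. Individual secretory markers were not uniform, and of the 14 tested 9 were higher and 5 lower in LF/LCL. The groups did not overlap for 9, beside 30.1% of all genes, with 7 higher and 2 lower in LF/LCL. WFDC2, an epithelial secreted protease inhibitor, had 9259 and 7479 in LF/LCL, against 2278, 3769 and 1812 in SF/SCL. KRT19, an epithelial keratin, had 3516 and 3166 against 5805, 5066 and 6749. Of the 14 secretory markers tested DESeq2 called 3, beside 2.90% of all genes tested, with WFDC2 and the transcription factor PAX8 higher in LF/LCL and KRT19 lower.

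Ciliated cell markers (25 of 25) summed to 66350 and 84165 normalized reads in LF/LCL, against between 100387 and 102915 in SF/SCL. The smooth muscle markers (13 of 14, with ACTG2 not analysed here) summed to 143927 and 75842 in LF/LCL, against 47103, 50158 and 19541 in SF/SCL. Neither of these sums overlapped between the groups, the muscle sum being higher and the ciliated sum lower in LF/LCL. The stromal fibroblast markers (13 of 13) summed to 46224 and 100890 in LF/LCL, against 29336 to 57419 in SF/SCL, and overlapped. Genes of proliferating cells (24 of 24) summed to 5201 and 3969 in LF/LCL, against 3403, 3660 and 3526 in SF/SCL. This sum did not overlap either, and 23 of the 24 genes were higher in LF/LCL. For 14 of them the groups did not overlap, beside 30.1% of all genes, and limma and DESeq2 called 0 of the 24. No ciliated, secretory, muscle, stromal or proliferation marker was at 0 in all libraries. The part of these cell types in the differences described here was not tested, and in whole tissue fewer cells of a type and less RNA per cell cannot be told apart. FOXJ1, the master regulator of motile cilia, had 8481 and 9373 normalized reads in LF/LCL, against 11200, 12700 and 10650 in SF/SCL, without overlap. Of the 24 ciliated markers tested 1 was higher and 23 were lower in LF/LCL. The groups did not overlap for 18 of them, all lower in LF/LCL, beside 30.1% of all genes. OVGP1 was the most abundant gene by mean value, although RARRES1 was above it in LF/LCL replicate 2.

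**Figure D2:**
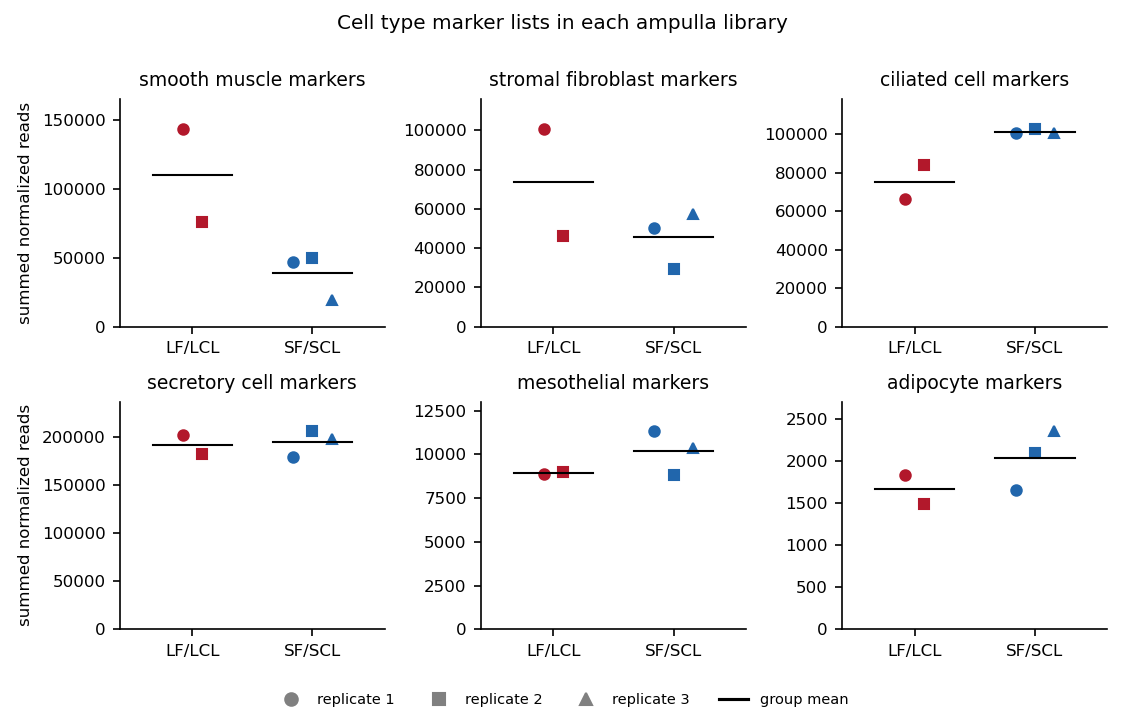
Summed normalized reads (linear axes from 0) of 6 lists of cell type markers in the 2 LF/LCL (red) and 3 SF/SCL (blue) libraries. Each symbol is 1 library and the line is the group mean; smooth muscle sums are higher (75842 and 143927) and ciliated cell sums lower (66350 and 84165) in LF/LCL, and the other 4 lists overlap between groups.

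The supply side of the pathway opens with RBP4 (ENSBTAG00000000442), the plasma carrier of retinol. RBP4 had 457 and 649 normalized reads in LF/LCL, against 678, 636 and 835 in SF/SCL. LF/LCL replicate 1 was the lowest library, while LF/LCL replicate 2 lay within the SF/SCL values. The log2 fold change of RBP4 was -0.38 ± 0.20 (SE; 95% interval -0.87 to 0.10; limma adjusted p = 0.522). RBP4 is also a product of fat, and the adipocyte markers in the table (7 of 10) summed to 1494 and 1828 in LF/LCL, against 1655 to 2353 in SF/SCL. Of these ADIPOQ, CIDEC and FABP4 lay below 10 normalized reads in every library. CFD, or adipsin, had 622.7 and 351.4 in LF/LCL, against 839, 1017 and 1582 in SF/SCL, and was called by DESeq2. PLIN4, a lipid droplet protein, stood the other way, with 322.5 and 221.7 against 62.38, 115 and 10.73, and LPL overlapped, between 697.6 and 943.5. The part of fat cells in the RBP4 value was not tested.

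STRA6 (ENSBTAG00000007348), the cell surface receptor that takes up retinol from RBP4, had 785 and 788 normalized reads in LF/LCL, against 1499, 1116 and 2768 in SF/SCL. All 3 SF/SCL libraries were above both LF/LCL libraries, and SF/SCL replicate 3 stood highest. The log2 fold change was -1.08 ± 0.37 (SE; 95% interval -2.0 to -0.17), with a limma adjusted p of 0.376 and a DESeq2 adjusted p of 0.06. DESeq2 called STRA6 without SF/SCL replicate 2 (adjusted p = 0.00115), and in none of the other 4 fits that left out a library (0.0698 to 0.341). In the other alternatives the adjusted p of STRA6 ran from 0.06 to 0.677.

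RBP4 and STRA6 belong to a list of 13 genes of retinol carriers and uptake, of which 12 were in the table and 8 passed the filter. LRP2, or megalin, an endocytic receptor that recovers RBP4, had 218 and 372 normalized reads in LF/LCL, against 601, 636 and 432 in SF/SCL. Its log2 fold change was -0.94 ± 0.28 (SE; limma adjusted p = 0.33; DESeq2 adjusted p = 0.102), and DESeq2 called it without LF/LCL replicate 2 alone (0.00964, and 0.0615 to 0.796 without each of the others). The groups did not overlap for LRP2.

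The plasma partner of RBP4, transthyretin (TTR), was low, between 7.74 and 82.6 normalized reads, and overlapped. SCARB1, a scavenger receptor that takes up carotenoids and lipoprotein lipid, lay between 607 and 989. The carriers RBP2, RBP3 and RBP5 had 0 reads in all 5 libraries, which allows up to 3 reads a library, or 2.33 to 3.52 normalized reads. The median log2 fold change of the 8 genes tested in this list was -0.60, with 3 genes above 0 and 5 below, and limma called 0 of them.

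None of the enzymes between retinol and retinaldehyde was called by limma or DESeq2. Of 17 listed oxidoreductases 14 were in the table and 8 were tested, with a median log2 fold change of 0.07 and DESeq2 calls for 0. DHRS3, which reduces retinaldehyde back to retinol and is itself a retinoic acid target, had 1140 and 812 normalized reads in LF/LCL, against 1546, 2113 and 1317 in SF/SCL. No SF/SCL library was as low as an LF/LCL library, and the log2 fold change was -0.76 ± 0.24 (SE; limma adjusted p = 0.355; DESeq2 adjusted p = 0.119). RDH10, which oxidizes retinol, overlapped between groups, with 371 and 272 against 332, 212 and 311. The storage enzyme LRAT was near the floor, between 0 and 11.6 normalized reads.

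Retinoic acid synthesis is the step that ALDH1A1, ALDH1A2 and ALDH1A3 carry out. ALDH1A1 (ENSBTAG00000008103) had 6795 and 6408 normalized reads in LF/LCL, against 3453, 3830 and 3515 in SF/SCL. ALDH1A2 (ENSBTAG00000010119) had 2226 and 2554 in LF/LCL, against 4816, 4484 and 3917 in SF/SCL. The pair stood in opposite order, and for neither gene did the groups overlap. ALDH1A3 (ENSBTAG00000009125) had 55.1 and 23.2 in LF/LCL, against 133, 208 and 195 in SF/SCL, again without overlap and on the side of ALDH1A2.

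The log2 fold change of ALDH1A1 was 0.88 ± 0.10 (SE; limma adjusted p = 0.178; DESeq2 adjusted p = 7.44e-10). That of ALDH1A2 was -0.88 ± 0.13 (limma adjusted p = 0.178; DESeq2 adjusted p = 1.14e-05). That of ALDH1A3 was -2.26 ± 0.43 (limma adjusted p = 0.222; DESeq2 adjusted p = 0.000425). For these 3 genes the DESeq2 call held without each library in turn, the highest adjusted p being 0.000919 for ALDH1A1, 0.0181 for ALDH1A2 and 0.0369 for ALDH1A3. The edgeR exact test called all 3 as well, and limma, with or without a library left out, called none of them (adjusted p up to 0.398).

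The ratio of ALDH1A1 to ALDH1A2 was computed after these values were seen. On the log2 scale it was 1.61 and 1.33 in LF/LCL, against -0.48, -0.23 and -0.16 in SF/SCL. ALDH1A1 therefore had more reads than ALDH1A2 in both LF/LCL libraries and fewer in all 3 SF/SCL libraries. ALDH1A1 supplied 74.9% and 71.3% of the summed reads of the 3 enzymes in LF/LCL, against 41.1%, 44.9% and 46.1% in SF/SCL. The sum moved less, with 9076 and 8985 normalized reads in LF/LCL, against 8402, 8522 and 7627 in SF/SCL. The smooth muscle, ciliated and proliferation sums given above also separated the groups, and their part in the ALDH1A values was not tested. The mesothelial markers (7 of 8) summed to 8907 and 9012 in LF/LCL, against 8815 to 11324 in SF/SCL, and overlapped. WT1, which made up most of this sum, lay between 6589 and 7240 in all 5 libraries. UPK1B, a uroplakin, had 93.82 and 390.1 in LF/LCL, against 638.4, 1293 and 1061 in SF/SCL. Of the 6 mesothelial markers tested 2 were higher and 4 lower in LF/LCL. UPK1B was the only 1 without overlap, beside 30.1% of all genes, and the only 1 called by DESeq2, beside 2.90%.

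**Figure D3:**
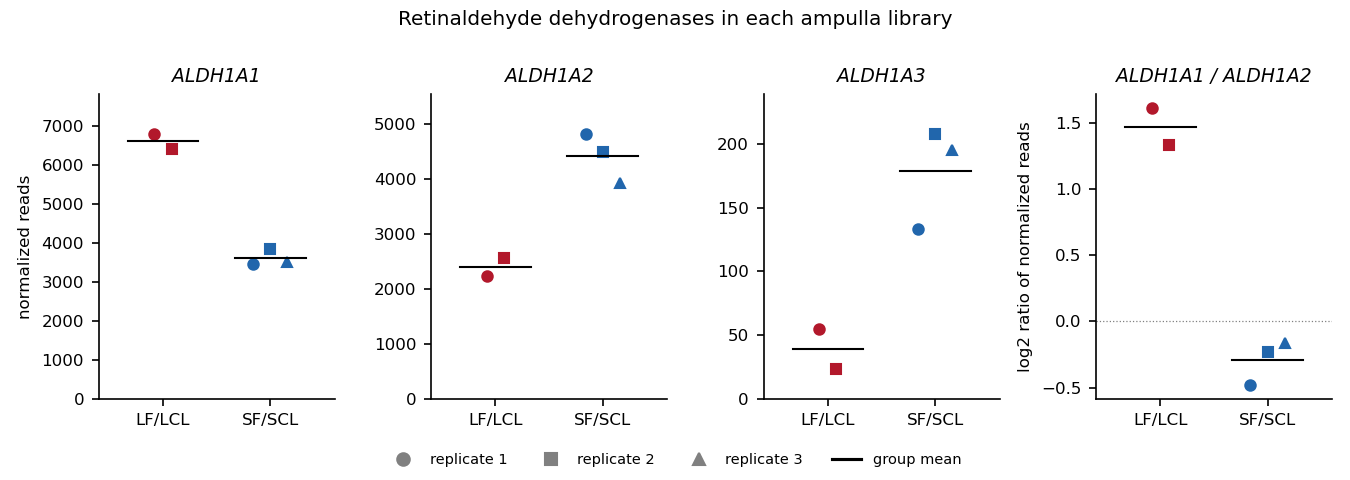
The 3 retinaldehyde dehydrogenases in each library, in normalized reads (linear axes from 0), and the log2 ratio of ALDH1A1 to ALDH1A2 (right; dotted line, equal reads). Each symbol is 1 of 2 LF/LCL (red) or 3 SF/SCL (blue) libraries and the line is the group mean; the ratio is 1.33 and 1.61 in LF/LCL and between -0.48 and -0.16 in SF/SCL.

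The CYP26 enzymes, which clear retinoic acid, were low in every library. CYP26B1 had 61.0 and 24.2 normalized reads in LF/LCL, against 41.6, 63.7 and 7.51 in SF/SCL, with no separation of the groups (log2 fold change 0.47 ± 0.95, SE; limma adjusted p = 0.897). CYP26A1 had 1.94 normalized reads in LF/LCL replicate 2 and 0 elsewhere. CYP26C1 had 0 reads in all 5 libraries.

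CRABP2 (ENSBTAG00000005716) carries retinoic acid to the nuclear receptors and is a classic target of the pathway. It had 432 and 448 normalized reads in LF/LCL, against 43.7, 57.5 and 236 in SF/SCL. Both LF/LCL libraries were above the SF/SCL libraries, and SF/SCL replicate 3 stood apart from the other SF/SCL libraries. The group means were 440 ± 11.7 (SD, n = 2) and 112 ± 107 (SD, n = 3). With a log2 fold change of 2.37 ± 0.72 (SE; 95% interval 0.59 to 4.15), CRABP2 differed most in size among the 9 genes, with a limma adjusted p of 0.345. The DESeq2 adjusted p of CRABP2 was 0.0988. Without SF/SCL replicate 3 the log2 fold change was 3.11 (limma adjusted p = 0.341) and DESeq2 called it (adjusted p = 1.85e-18), while without any other library the DESeq2 adjusted p was 0.196 to 0.473.

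The related CRABP1 had 442 and 264 normalized reads in LF/LCL, against 225, 246 and 381 in SF/SCL. Its log2 fold change was 0.31 ± 0.32 (SE; limma adjusted p = 0.768), and the groups overlapped. FABP5, which can carry retinoic acid to another receptor, PPARD, ranged from 204 to 821 with overlap. Thus CRABP2 alone of the 3 intracellular carriers separated the groups, and whether the carriers differed from each other was not tested.

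Next come the nuclear receptors. RARA (ENSBTAG00000012500) had 1498 and 1513 normalized reads in LF/LCL, against 1458, 1638 and 1828 in SF/SCL. RARB (ENSBTAG00000011518), whose gene is itself induced by retinoic acid in many cells, had 111 and 67.8 in LF/LCL, against 101, 97.9 and 124 in SF/SCL. RARG (ENSBTAG00000007592) had 511 and 357 in LF/LCL, against 553, 433 and 876 in SF/SCL. The groups overlapped for all 3 RAR genes, and the highest RARA, RARB and RARG values were all in SF/SCL replicate 3.

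RXRA (ENSBTAG00000017851), a partner of the RARs, had 398 and 333 normalized reads in LF/LCL, against 371, 308 and 350 in SF/SCL. The log2 fold changes were -0.12 ± 0.12 (SE) for RARA, -0.30 ± 0.31 for RARB, -0.47 ± 0.33 for RARG and 0.09 ± 0.16 for RXRA. The 95% intervals ran from -0.42 to 0.18 for RARA, from -1.06 to 0.46 for RARB, from -1.27 to 0.32 for RARG and from -0.30 to 0.48 for RXRA. The limma adjusted p of these receptors lay between 0.633 and 0.88. The precision therefore leaves room for a difference of over 1 log2 unit in RARB and RARG, and for less than 0.5 in RARA and RXRA.

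The shares of the receptor subtypes overlapped between the groups for the RARs. RARA made up 70.6% and 78.1% of the summed RAR reads in LF/LCL, against 69.0%, 75.5% and 64.6% in SF/SCL, RARG 18.4% to 31.0% and RARB 3.50% to 5.25%. Among the RXR genes RXRB itself overlapped, with 1496 and 1680 normalized reads in LF/LCL, against 1640, 1661 and 1715 in SF/SCL. The share of RXRB did not overlap, being 75.2% and 75.8% in LF/LCL, against 77.9%, 83.6% and 80.9% in SF/SCL. Nor did the share of RXRG, being 4.78% and 9.13% in LF/LCL, against 4.45%, 0.9% and 2.63% in SF/SCL. RXRA had the next largest share after RXRB in each library. These are shares of reads, not of molecules, since the lengths of the transcripts were not used. RXRG had 95.0 and 202 normalized reads in LF/LCL, against 93.6, 17.9 and 55.8 in SF/SCL. LF/LCL replicate 1 was barely above SF/SCL replicate 1, and the log2 fold change of RXRG was 1.58 ± 0.74 (SE; limma adjusted p = 0.483).

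Genes known from textbooks to respond to retinoic acid were listed as a group of 38, of which 33 were tested. The list includes 5 of the 9 genes (RARRES1, RARRES2, CRABP2, STRA6 and RARB). Of the 33, 22 were higher and 11 lower in LF/LCL, the median log2 fold change was 0.11, and limma called 0. DESeq2 called 3 as higher in LF/LCL, beside 1.38% of all genes, and 3 as lower, beside 1.51%. At an unadjusted limma p under 0.05 5 were higher in LF/LCL, beside 5.64% of all genes, and 6 were lower, beside 5.86%. The list thus had differences in both directions.

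RAI14 (ENSBTAG00000007071), an actin-binding protein named for its induction by retinoic acid, had 471 and 440 normalized reads in LF/LCL, against 850, 1031 and 1124 in SF/SCL. Its log2 fold change was -1.13 ± 0.15 (SE; limma adjusted p = 0.178; DESeq2 adjusted p = 1.97e-06), and DESeq2 called it without each library in turn (adjusted p at most 0.007). ZNF703, a transcriptional repressor, had 464 and 490 in LF/LCL, against 285, 332 and 324 in SF/SCL (0.61 ± 0.14, SE; limma adjusted p = 0.275; DESeq2 adjusted p = 0.0346). Without any 1 library ZNF703 was not called by DESeq2 (adjusted p 0.199 to 0.567).

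MEIS2 and TGFB2 were also called by DESeq2 and are named because of that. The homeobox gene MEIS2 had 2095 and 1937 normalized reads in LF/LCL, against 2547, 3033 and 2976 in SF/SCL (log2 fold change -0.50 ± 0.12, SE; DESeq2 adjusted p = 0.0316). The growth factor TGFB2 had 230 and 145 in LF/LCL, against 315, 361 and 410 in SF/SCL (log2 fold change -0.97 ± 0.24, SE; DESeq2 adjusted p = 0.0407). Neither passed limma, where the adjusted p was 0.281 for MEIS2 and 0.298 for TGFB2. With a library left out DESeq2 called MEIS2 without SF/SCL replicate 1 only (0.0432) and TGFB2 without LF/LCL replicate 1 only (0.0103). TGM2, the tissue transglutaminase and a long-known retinoid target, was abundant, with 10421 and 9446 against 11354, 6231 and 6080, and its groups overlapped.

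**Figure D4:**
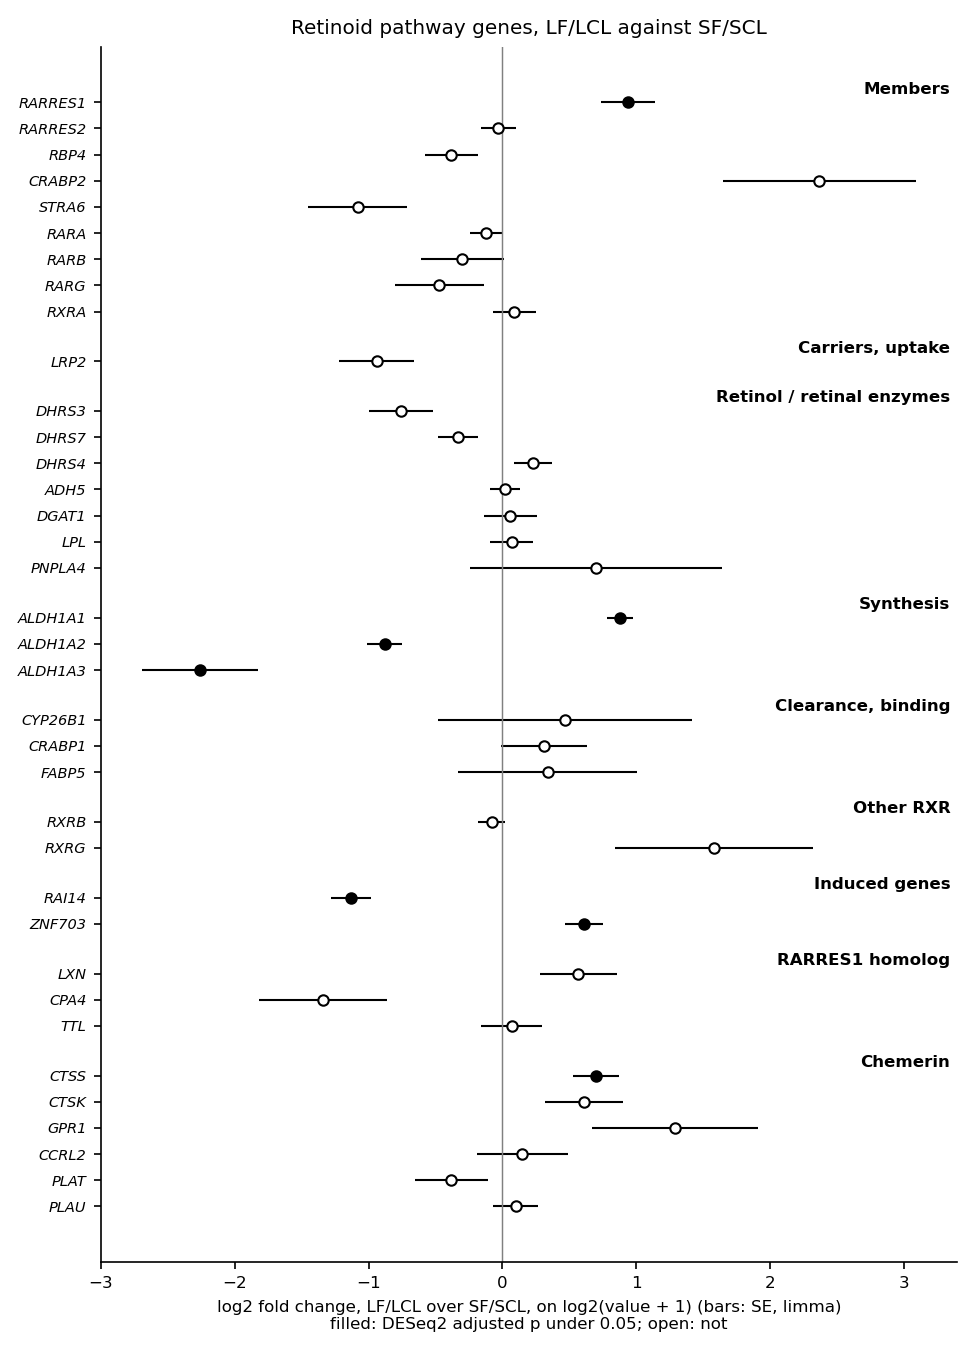
Log2 fold change (LF/LCL over SF/SCL, on log2(value + 1); points, limma estimate; bars, SE) of the 9 genes and of other retinoid genes, by role. Filled points have a DESeq2 adjusted p under 0.05; ALDH1A1 (0.88) lies opposite ALDH1A2 (-0.88) and ALDH1A3 (-2.26), CRABP2 (2.37) has a wide bar, and the RAR and RXRA points lie between -0.47 and 0.09.

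RARRES2 (ENSBTAG00000004215) encodes chemerin, a secreted attractant of immune cells and an adipokine, and shares with RARRES1 only its naming as a retinoid responder. It had 1611 and 1515 normalized reads in LF/LCL, against 1586, 1431 and 1803 in SF/SCL. The groups overlapped fully, and the log2 fold change was -0.03 ± 0.13 (SE; 95% interval -0.34 to 0.28; limma adjusted p = 0.949). So RARRES2 did not show the separation seen in RARRES1, although the difference between the fold changes was not tested.

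Receptors and proteases of chemerin were listed as 15 genes, with 12 in the table and 8 tested. GPR1, a chemerin receptor, was low, with 10.6 and 22.3 normalized reads in LF/LCL, against 7.28, 4.66 and 5.37 in SF/SCL, and CCRL2, which binds chemerin without signaling, ranged from 63.3 to 99.7. The main signaling receptor, CMKLR1, was not analysed here. CTSS, the lysosomal protease cathepsin S, had 2882 and 3547 in LF/LCL, against 2345, 1700 and 1920 in SF/SCL. Its log2 fold change was 0.70 ± 0.17 (SE; limma adjusted p = 0.289; DESeq2 adjusted p = 0.0321), and with a library left out DESeq2 called it without SF/SCL replicate 1 (0.0085) and not without any of the others (0.071 to 0.483). CTSS is also made by macrophages and dendritic cells, and the immune markers (22 of 23 listed) summed to 5653 and 8147 in LF/LCL, against 3672 to 5887 in SF/SCL. Of the 2 entries for GZMB, a protease of killer lymphocytes, ENSBTAG00000010057 was at 0 in all libraries, while ENSBTAG00000039813 had 41.05 and 27.1 in LF/LCL, against 12.48, 7.772 and 10.73 in SF/SCL. Of the 21 immune markers tested 19 were higher and 2 lower in LF/LCL. The groups did not overlap for 12, beside 30.1% of all genes, with 11 higher and 1 lower in LF/LCL. The macrophage marker CD68 was lower, with 62.16 and 62.91 in LF/LCL, against 73.82, 73.83 and 194.2 in SF/SCL. CD14 and CSF1R, also made by macrophages, overlapped. The part of immune cells in the CTSS value was not tested.

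RARRES1 belongs with latexin (LXN), an inhibitor of metallocarboxypeptidases, to a small protein family. LXN had 104 and 102 normalized reads in LF/LCL, against 82.1, 55.2 and 73.0 in SF/SCL, without overlap (log2 fold change 0.57 ± 0.29, SE; limma adjusted p = 0.519). CPA4, a carboxypeptidase that latexin inhibits, had 43.4 and 59.0 in LF/LCL, against 163, 69.9 and 189 in SF/SCL. Its log2 fold change was -1.34 ± 0.48 (SE; limma adjusted p = 0.386; DESeq2 adjusted p = 0.12). DESeq2 called CPA4 without SF/SCL replicate 2 (adjusted p = 0.00221) and in no other fit that left out a library (0.309 to 0.733). TTL, the tubulin tyrosine ligase, overlapped between groups, with a log2 fold change of 0.07 ± 0.23 (SE). The carboxypeptidase AGBL2, a known partner of RARRES1, was not analysed here.

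The 5 genes whose values over the libraries most resembled those of RARRES1 were found by the root mean square distance of log2(value + 1), centred on each gene's mean, over the 5 libraries. Of these, 4 are named here, KCNN2 (distance 0.0828), GIMAP7 (0.0884), PARVA (0.0993) and RASL11B (0.0997), and the 5 were also nearest when library size replaced the size factors. KCNN2, a calcium-activated potassium channel, had 373 and 433 normalized reads in LF/LCL, against 283, 246 and 180 in SF/SCL. It thus followed the same order of libraries as RARRES1, from LF/LCL replicate 2 down to SF/SCL replicate 3. With 5 libraries such resemblance is a description and carries no test.

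**Figure D5:**
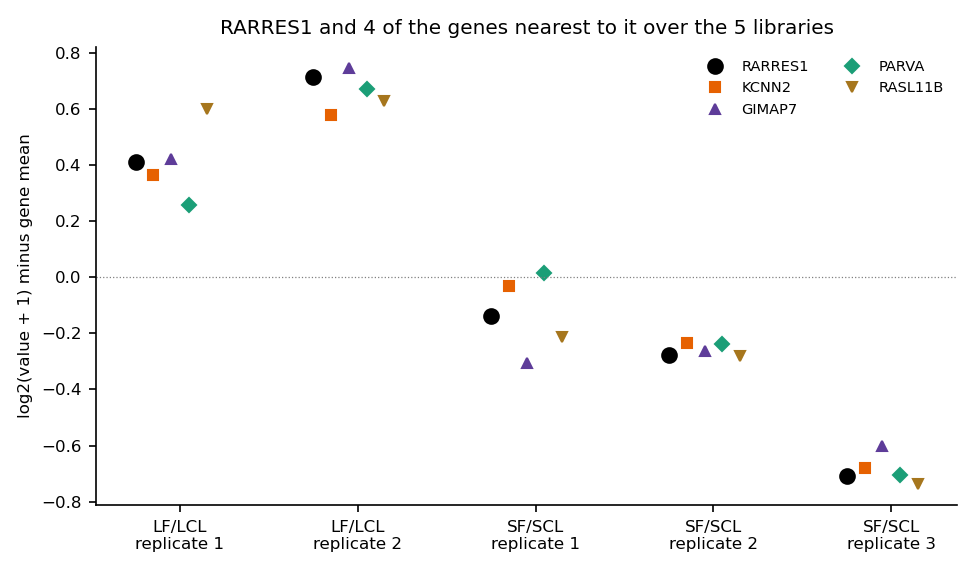
RARRES1 (black) and 4 of its 5 nearest genes in each library, as log2(value + 1) minus the mean of the gene over the 5 libraries (dotted line at 0). In SF/SCL replicate 3 all 5 genes are lowest and in both LF/LCL libraries all lie above their mean.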

How the data were processed

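Per the labels and the study's methods, the authors sequenced polyA libraries as read pairs, trimmed them with seqyClean, aligned them with TopHat2 2.0.8 and Bowtie2 2.1.0 to the masked UMD assembly and counted reads per Ensembl gene with HTSeq 0.5.4p2. Whether counting used strand is not given in the sources used here, so overlapping or antisense genes are uncertain. The deposited unit is a normalized signal, the reads of a gene divided by a DESeq 1.12.1 size factor. Each nonzero value was a whole multiple of 1 step per library (100% within 0.05), which returned the whole reads.

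The 2 LF/LCL and 3 SF/SCL libraries were compared with limma 3.58.1 (trend and robust on) on log2(value + 1), two-sided, for the 15815 genes with a mean over 5. P-values were adjusted by Benjamini-Hochberg over all of these, with a threshold of 0.05. An exact permutation test of 1 gene could not go below 0.1 (10 splits). edgeR 4.0.16 and DESeq2 1.42.0 on recovered reads, other scalings, pseudocounts, filters and left-out libraries were alternatives. Scripts were tested on simulated data. No batch was given in the labels, and the authors left out an LF/LCL library with few reads.

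The 9 genes and the lists were chosen with earlier results of these data known. Besides the 9, named genes were, per list, those with the smallest p (mean at least 50) and highest mean, all genes of the short lists, and the 5 nearest to RARRES1. A few of these are not reported here. Other names were chosen after their values were seen. A gene table of another assembly was not needed, and sequences and transcript lengths were not used here.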

Additional observations from a re-analysis of the deposited data

How the results depend on the processing

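Of the genes tested, limma called 0 in all its alternatives, as did the edgeR quasi-likelihood test and voom, whereas DESeq2 called 458 and the edgeR exact test 335. Of the 9 genes these called 1 and 1 (RARRES1, log2 fold change 0.93 with each), and of the 96 retinoid genes tested 10 and 5, beside 2.90% and 2.12% of all genes tested. Without 1 library, an alternative chosen after seeing the data, DESeq2 called 261 to 400 genes (261 without LF/LCL replicate 1 and 293 without SF/SCL replicate 3), 0 to 2 of the 9, and 6 to 8 retinoid genes. It called none of the 9 without LF/LCL replicate 2, RARRES1 and STRA6 without SF/SCL replicate 2, and RARRES1 and CRABP2 without SF/SCL replicate 3. Where an LF/LCL library is left out, the lone other one is assumed to vary like the SF/SCL libraries.

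Of all values under alternatives, 1067 kept their direction and side of the threshold, 33 moved, 16 passed the threshold only there and 29 reversed. With no filter but a read, list medians were 0.66 (chemerin), -0.61 (retinoic acid synthesis) and 0.12 (oxidoreductases). ADH5 reversed with library size scaling (-0.02), and CTSL1 with DESeq2, the exact test and the quasi-likelihood test (-0.48) and with a pseudocount of 5 (-0.01). The cause was not tested.

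With each library left out in turn, the log2 fold changes that reversed ran from -0.11 to 0.05 for RARRES2, -0.65 to 0.06 for RARB, -0.04 to 0.22 for RXRA, -0.22 to 1.28 for PNPLA4, -0.02 to 0.20 for LPL, -0.12 to 0.24 for DGAT1, -0.05 to 0.07 for ADH5, -0.41 to 1.11 for CYP26B1, -0.06 to 0.68 for CRABP1, -0.23 to 0.96 for FABP5, -0.16 to 0.01 for RXRB, -0.03 to 0.12 for CNOT1, -0.06 to 0.22 for TTL, -0.78 to 0.02 for PLAT, -1.04 to 1.29 for CTSL1, -0.01 to 0.23 for PLAU and -0.18 to 0.47 for CCRL2. List medians ran from -0.86 to -0.11 for carriers and uptake, -0.01 to 0.63 for esters and carotenoids, -0.04 to 0.10 for oxidoreductases, 0.16 to 0.96 for intracellular binding, -0.07 to 0.15 for RXR partners, -0.09 to 0.01 for coregulators, -0.08 to 0.20 for induced genes and 0.04 to 0.45 for chemerin. RARRES1 ran from 0.77 to 1.09, ALDH1A1 from 0.83 to 0.92, ALDH1A2 from -0.98 to -0.78 and ALDH1A3 from -2.87 to -1.65.

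The labels give animal numbers and no replicate numbers, so the replicates were numbered here in the order of the samples. No paired analysis was possible because each library is from another cow. Values per transcript length were not run. Genes with few reads, such as CYP26B1 and GPR1, are limited by depth.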

Other observations

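Partners that share RXR with the retinoic acid receptors were present, except NR1H4, which had 0 reads in every library. None was called between the groups. Of the 13 listed, 12 were tested, with a median log2 fold change of 0.14 and 0 calls with limma or DESeq2, and 0 at an unadjusted limma p under 0.05. The thyroid hormone receptor THRA had 1799 and 1730 normalized reads in LF/LCL, against 2139, 1964 and 2061 in SF/SCL (log2 fold change -0.22 ± 0.10, SE; limma adjusted p = 0.46). PPARG, the adipocyte receptor that is also found in other tissues, had 37.5 and 101 against 52.0, 11.7 and 23.6. The vitamin D receptor VDR overlapped, with 203 and 317 against 329, 141 and 222.

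Coregulators of the RARs had small fold changes. Of 18 listed, 16 were tested, with fold changes on the log2 scale from -0.32 to 0.19 and a median of -0.01. NRIP1, a corepressor that is also induced by retinoic acid, had 1773 and 2145 normalized reads in LF/LCL, against 2592, 2336 and 2365 in SF/SCL (-0.32 ± 0.12, SE; limma adjusted p = 0.414). NCOR1, the main corepressor of unliganded RARs, had 3772 and 3706 against 3664, 3688 and 3558. EP300, a histone acetyltransferase coactivator, had 3420 and 3440 against 3191, 3164 and 3096. The groups did not overlap for 6 of the 16, beside 30.1% of all genes, with NCOR1 and EP300 higher in LF/LCL and NRIP1, CARM1, NCOA3 and MED1 higher in SF/SCL.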
